A study of Mus musculus with 4 samples.

Results

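Pancreatic ducts and the bipotent progenitors that give rise to duct and endocrine cells are marked by 9 genes: Sox9, Onecut1, Hes1, Krt7, Krt8, Krt18, Krt19, Spp1 and Cftr. Their transcripts were measured in whole pancreas of Cyp11a1 knockout and wild-type mouse embryos of strain C57BL/6JNarl at stage E18.5, shortly before birth. The genes were taken by name: every non-control probe whose RefSeq transcript belongs to one of them was used, which gave 13 of 41174 probes and 9 of 17301 named genes. Of these, 12 probes covering all 9 genes passed the filter on dim probes, beside 15527 genes tested in all. On each of 4 two-colour arrays a knockout extract (red) was hybridised together with a wild-type extract (green), so a ratio above 0 on the log2 scale is a higher signal in knockout. The labels describe the 4 arrays as biological replicates. They do not give the deleted part of Cyp11a1, the sex of the embryos or the number of embryos in an extract.

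In the developing pancreas, Sox9 and Onecut1 are transcription factors of the multipotent epithelium and later of the ducts, and Hes1 is the repressor through which Notch signals hold progenitors undifferentiated. The keratins Krt7, Krt8, Krt18 and Krt19 build the intermediate filaments of simple epithelia, in which 1 type I chain (Krt18, Krt19) pairs with 1 type II chain (Krt7, Krt8). Spp1, osteopontin, is a secreted phosphoprotein of ducts, and Cftr is the apical chloride channel that drives bicarbonate-rich duct secretion. None of these genes is exclusive to ducts: Krt8 and Krt18 are also made by acinar and endocrine cells and hepatocytes, Krt7 and Krt19 by mesothelium, and Spp1 by macrophages.

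The spots had median signals of 304 to 467 in knockout and 163 to 224 in wild type, and 78.2% to 85.1% of spots lay well above background in a channel. Per the file headers, observed log ratios of the spiked control RNAs had a slope of 0.67 to 0.73 on the expected ones, so the control ratios came out smaller than the differences put in. Cyp11a1, the targeted gene, encodes the side-chain cleavage enzyme that starts steroid hormone synthesis from cholesterol. It was at -0.19, -0.40, 0.013 and -0.072 (log2 ratio) on arrays 1 to 4 on its brighter probe and did not pass (limma adjusted p = 0.165), and the second probe was well above background in 0 knockout extracts and 1 wild-type extract. Whether either probe lies in the deleted part is not known, so they do not check the labels. Xist, the transcript of the inactive X chromosome of females, was at -3.91, -0.28, -4.22 and 3.46 on arrays 1 to 4, and the part of embryo sex in the values below was not tested. All 13 acinar and all 9 endocrine marker genes on the array passed the filter. Knockout was in the red dye on all 4 arrays, so genotype and any dye preference of a gene cannot be told apart.

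Krt8 and Krt18, the partner chains of simple epithelial filaments, were higher in knockout pancreas, whereas none of the other 7 genes passed the test. The mean log2 ratio was 0.30 for Krt18, or 1.23-fold, and 0.21 for Krt8, or 1.16-fold. Thus 2 of 9 genes were called higher and 0 lower (limma, Benjamini-Hochberg over all genes, adjusted p under 0.05; the same 2 had an unadjusted p under 0.05, against 30.8% of all genes), beside 9.45% of all genes called higher, 5.11% called lower and 14.6% called in either direction. The median of the 9 genes was 0.086, and that of all tested genes 0.013. Sox9, Onecut1, Krt8, Krt18 and Cftr were above 0 on all 4 arrays, a pattern found in 24.6% of all genes measured on 4 arrays. Because whole pancreas was measured, more duct cells, more of the other cells that make these transcripts and more RNA per cell cannot be told apart.

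**Figure D1:**
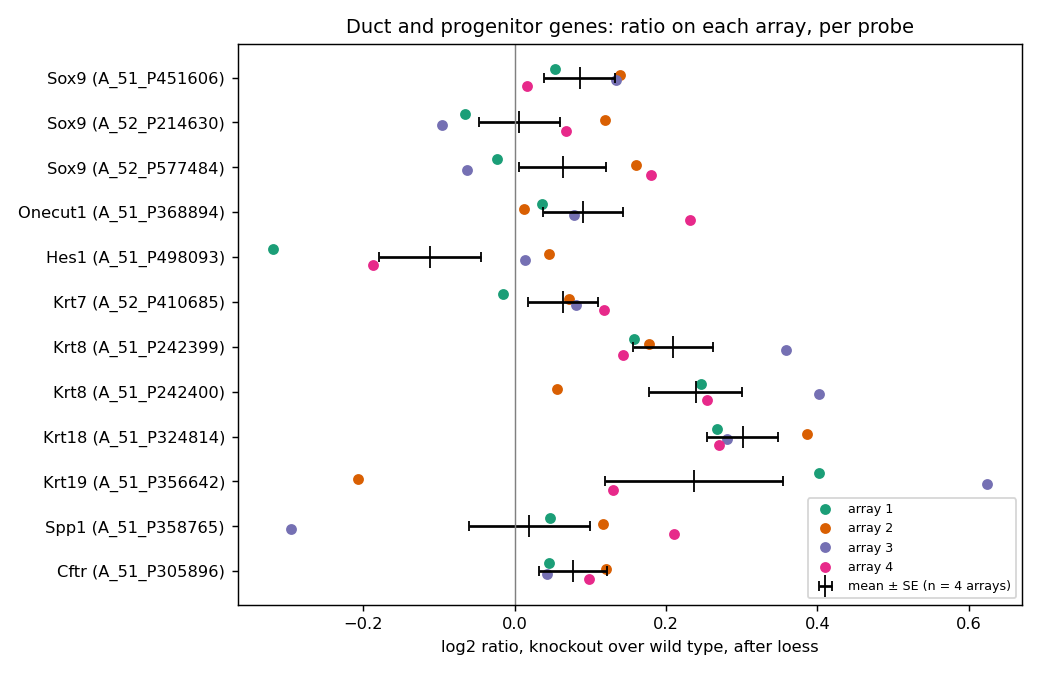
Log2 ratio of knockout over wild type (horizontal axis) for the 12 tested probes of the 9 genes (rows). Coloured points are the 4 arrays and black bars the mean ± SE over 4 arrays; both Krt8 probes and the Krt18 probe lie above 0 on every array, and Krt19 runs from -0.21 on array 2 to 0.62 on array 3.

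Of the transcription factors, Sox9 had 3 probes. On the brightest (A_51_P451606) its normalised log2 intensity was 12.98, 13.06, 13.01 and 12.73 in the knockout extracts of arrays 1 to 4, against 12.93, 12.93, 12.87 and 12.72 in the wild-type extracts. The groups overlapped, and within each array the knockout extract was the higher one, by 0.054, 0.14, 0.13 and 0.017. The mean ratio of 0.086 ± 0.046 (log2, SE, n = 4 arrays) did not pass (limma adjusted p = 0.249), with an unadjusted 95% interval of -0.021 to 0.19. The other probes gave 0.064 ± 0.058 and 0.0064 ± 0.054, and each was below 0 on arrays 1 and 3, so the common sign held on 1 of the 3 probes only.

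The second Sox9 probe (A_52_P214630) was printed at 10 spots on each array, which shows the spread within an array. Its spots ranged from -0.28 to 0.11 on array 1, from -0.054 to 0.21 on array 2, from -0.24 to 0.049 on array 3 and from -0.0097 to 0.19 on array 4. The SD between single spots of an array was 0.068 to 0.11, and that between the 4 array means, each over 10 spots, was 0.10. A mean over 10 spots varies less than a single spot, so these SDs are not like measures.

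Onecut1, which acts upstream of Sox9 and of endocrine specification, was at 10.86, 10.84, 11.02 and 11.15 (log2 intensity) in knockout, against 10.82, 10.82, 10.94 and 10.92 in wild type. Its ratio was 0.036, 0.013, 0.079 and 0.23 on arrays 1 to 4, so that array 4 carried most of the mean of 0.090 ± 0.052 (limma adjusted p = 0.283). Without array 4 the mean was 0.043.

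Hes1 was the only one of the 9 genes with a mean below 0, at -0.11 ± 0.068 (log2 ratio, SE, n = 4 arrays, limma adjusted p = 0.309). Its log2 intensity was 9.77, 10.37, 10.57 and 9.76 in knockout, against 10.09, 10.32, 10.56 and 9.95 in wild type. Arrays 1 and 4 were lower in knockout (-0.32 and -0.19) and arrays 2 and 3 slightly higher (0.045 and 0.014). Both extracts of arrays 2 and 3 lay above both extracts of arrays 1 and 4, so the spread between arrays (SD 0.41 in knockout and 0.27 in wild type) exceeded the difference between genotypes.

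**Figure D2:**
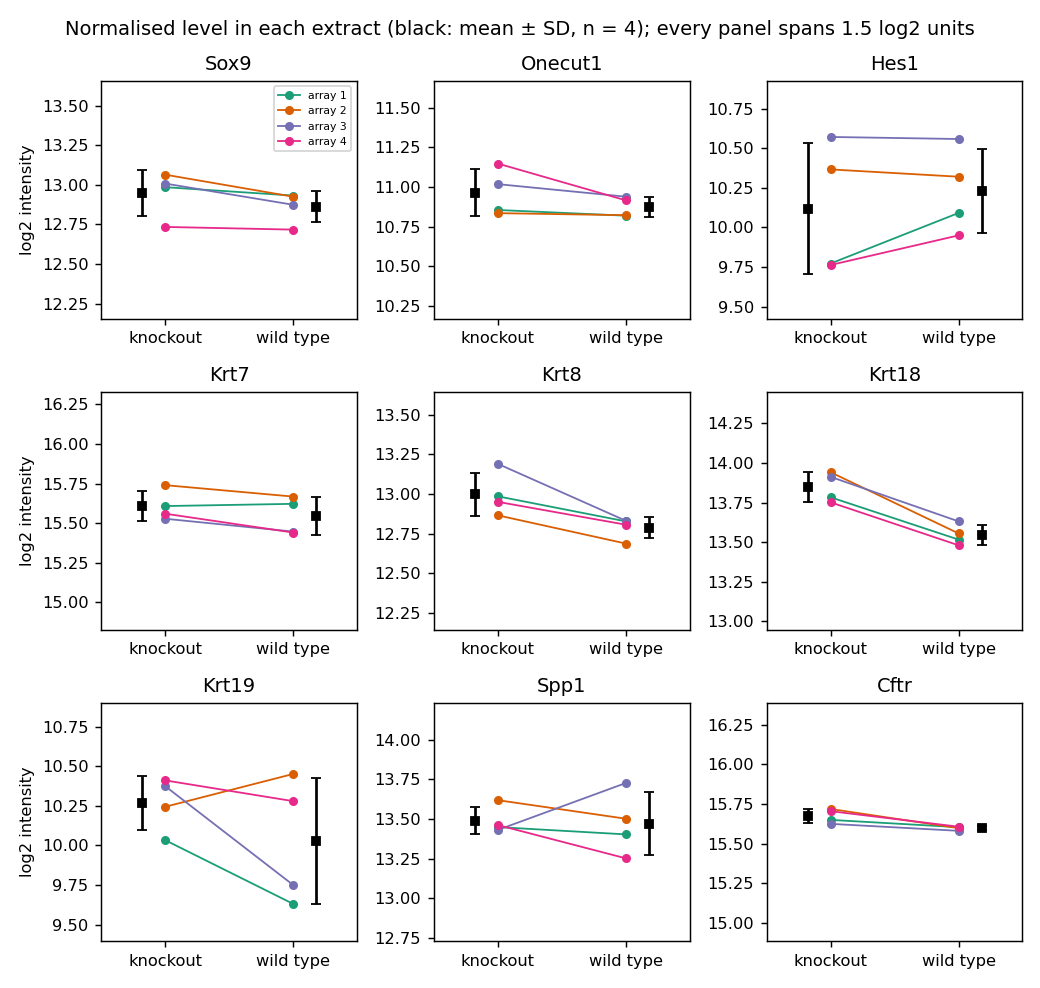
Normalised log2 intensity (vertical axis) of each gene's brightest probe in the 4 knockout extracts (left) and the 4 wild-type extracts (right); lines join the extracts of an array and black squares give the mean ± SD. Every line falls towards wild type for Krt8 and Krt18, the Hes1 lines are far apart by array, and the Krt19 line of array 2 and the Spp1 line of array 3 run against the others.

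Krt18 showed the clearest difference. Its log2 intensity was 13.78, 13.94, 13.91 and 13.75 in knockout, against 13.52, 13.56, 13.63 and 13.48 in wild type. The lowest knockout extract lay above the highest wild-type extract. How often this holds among all genes was not counted, here or for Krt8 and Cftr below, so it is only a description. The ratios of 0.27, 0.39, 0.28 and 0.27 gave a mean of 0.30 ± 0.045 (log2, SE, n = 4 arrays, limma adjusted p = 0.0073, 95% interval 0.20 to 0.41). Leaving out any 1 array kept it between 0.27 and 0.31, with adjusted p of 0.020 to 0.032.

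Krt8 had 2 probes of like size. On the brighter (A_51_P242399) its log2 intensity was 12.98, 12.87, 13.19 and 12.95 in knockout, against 12.83, 12.69, 12.83 and 12.81 in wild type, and these groups did not overlap either. Its ratio was 0.16, 0.18, 0.36 and 0.14, with a mean of 0.21 ± 0.052 (limma adjusted p = 0.037, 95% interval 0.088 to 0.33). The second probe (A_51_P242400) gave 0.25, 0.055, 0.40 and 0.25, with a mean of 0.24 ± 0.061 (limma adjusted p = 0.039 in the fit of all probes, of which 13.3% passed). With 3 arrays the call was lost whichever array was left out (0.16 to 0.23, adjusted p = 0.068 to 0.138), and the lowest value was that without array 3. RefSeq also names a Krt8 pseudogene, and since probe sequences were not used here, cross-hybridisation was not tested.

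With the array ignored as a pair, 8 single channels gave limma adjusted p = 0.109 for Krt18 and 0.342 for Krt8, so both calls rest on the pairing of extracts on an array. Krt8 and Krt18 are neighbours on chromosome 15, with no other protein-coding gene between them in RefSeq (GRCm38.p6). Their promoters are printed because they are the pair of neighbouring genes that changed together. RefSeq promoters were found for 6 of the 9 genes, and each runs 5′ to 3′ in the gene's direction, from 250 bases before the annotated start to 50 bases after it. Krt8 is at chr15:102004293-102004592 (minus strand) and Krt18 at chr15:102027966-102028265 (plus strand). Capitals mark matches, on either strand, to a TATA box (TATAAA) or to the core letters bound by glucocorticoid and related steroid receptors (AGAACA).
Krt8: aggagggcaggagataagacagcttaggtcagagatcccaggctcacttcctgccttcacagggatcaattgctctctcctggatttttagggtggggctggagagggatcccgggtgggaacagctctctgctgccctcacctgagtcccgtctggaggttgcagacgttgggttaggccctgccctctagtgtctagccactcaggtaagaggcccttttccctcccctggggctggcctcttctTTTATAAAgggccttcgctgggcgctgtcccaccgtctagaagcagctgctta
Krt18: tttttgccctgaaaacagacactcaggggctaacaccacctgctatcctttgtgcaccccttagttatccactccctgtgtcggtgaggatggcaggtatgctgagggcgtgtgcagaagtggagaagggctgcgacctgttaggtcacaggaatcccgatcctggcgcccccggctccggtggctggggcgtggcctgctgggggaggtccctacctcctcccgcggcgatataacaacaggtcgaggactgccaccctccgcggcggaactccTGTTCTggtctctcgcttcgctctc
The Krt8 window held TATAAA on both strands, in overlapping letters that begin at bases 248 and 250, and no AGAACA. These letters begin only 3 and 1 bases before the annotated start. The Krt18 window held AGAACA once, on the minus strand from base 276, and no TATAAA. That match lies in the 50 bases after the annotated start. Neither window held the Sp1 box GGGCGG. Among 32851 RefSeq promoter windows of this length, 13.6% held TATAAA, 19.0% AGAACA and 35.7% GGGCGG on either strand, so these matches are common letters and are given as a description.

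Krt7, the type II keratin most typical of ducts, was at 15.61, 15.74, 15.53 and 15.56 (log2 intensity) in knockout, against 15.62, 15.67, 15.45 and 15.44 in wild type. The groups overlapped, and the ratios of -0.015, 0.072, 0.081 and 0.12 gave a mean of 0.064 ± 0.045 (limma adjusted p = 0.376). Its 95% interval was -0.041 to 0.17, and a difference between Krt7 and Krt18 was not tested. Only 0.61% of tested probes were brighter, and the probe was not marked as saturated.

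Krt19, the type I keratin used to trace ducts, varied most between arrays. Its log2 intensity was 10.03, 10.24, 10.37 and 10.41 in knockout, against 9.63, 10.45, 9.75 and 10.28 in wild type. Knockout was higher on arrays 1, 3 and 4 (0.40, 0.62 and 0.13) and lower on array 2 (-0.21), and the spread lay mainly in the wild-type extracts (SD 0.17 in knockout and 0.40 in wild type). The mean of 0.24 ± 0.12 did not pass (limma adjusted p = 0.225), whereas without array 2 it was 0.39 and passed (adjusted p = 0.045). Without array 3 it was 0.11 (adjusted p = 0.583). The mean log2 ratio of mesothelial markers was also lowest on array 2, at -0.50, against -0.11, -0.086 and -0.13 on arrays 1, 3 and 4. Of these markers, Gpm6a was highest on array 2 (-0.087, against -0.17, -0.15 and -0.18). The low on array 2 was not particular to mesothelium: the means of macrophage (-0.28) and mesenchymal (-0.096) markers were lowest there too. Of 6 measured mesothelial markers 0 passed (limma; 4 had an unadjusted p under 0.05), and their mean log2 level was 7.83 to 8.34 in knockout and 7.92 to 8.52 in wild type. Msln, mesothelin, was at -1.05 on array 2. The part of these cells in the Krt19 values was not tested.

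Among the secreted and transport genes, Spp1 was at 13.45, 13.62, 13.43 and 13.46 (log2 intensity) in knockout, against 13.40, 13.50, 13.73 and 13.25 in wild type. Its ratios of 0.046, 0.12, -0.30 and 0.21 had no common sign, and the mean was 0.020 ± 0.081 (limma adjusted p = 0.897, 95% interval -0.17 to 0.21). The spots of an array lay close together: of 10 spots per array, 10 were below 0 on array 3 (-0.40 to -0.20) and 10 above 0 on arrays 2 (0.070 to 0.17) and 4 (0.17 to 0.28). The SD between spots was 0.030 to 0.063, and that between arrays 0.22. Markers of macrophages, which also make Spp1, had mean log2 ratios of 0.067, -0.28, 0.13 and -0.021 on arrays 1 to 4, and their part in the Spp1 values was not tested.

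Cftr had small ratios of 1 sign. Its main probe (A_51_P305896), also printed at 10 spots, gave log2 intensities of 15.65, 15.72, 15.63 and 15.71 in knockout, against 15.60, 15.60, 15.58 and 15.61 in wild type. The 2 groups did not overlap, yet the ratios of 0.046, 0.12, 0.043 and 0.099 gave a mean of 0.077 ± 0.044 that did not pass (limma adjusted p = 0.273, 95% interval -0.024 to 0.18). The second probe (A_52_P452881) was well above background in 0 knockout extracts and 1 wild-type extract, so it gives no fold. With 0.54% of tested probes brighter than the main probe and the other at background, the probes of this gene disagree on whether Cftr is measured at all, and the Cftr value rests on 1 of them.

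**Figure D3:**
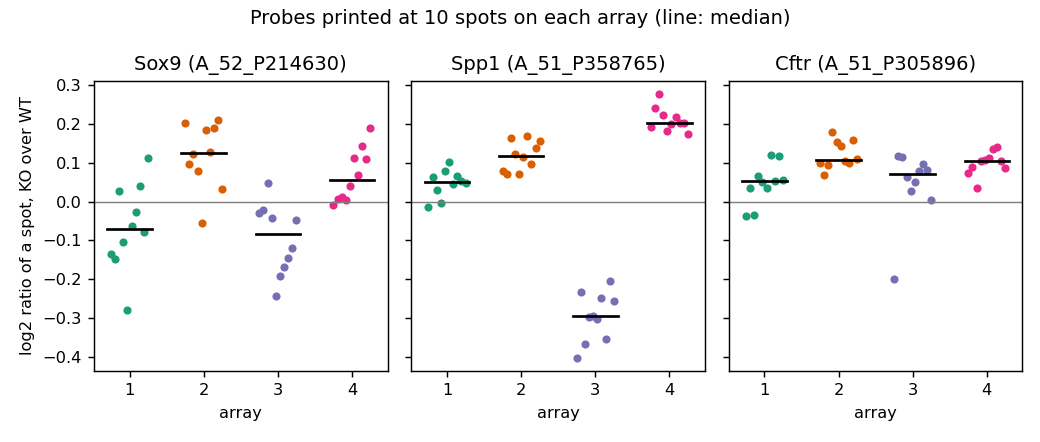
Log2 ratio of knockout over wild type at each of the 10 spots (points) that carry one Sox9, one Spp1 or one Cftr probe on arrays 1 to 4 (horizontal axis), with the median as a line. The Spp1 spots of array 3 lie wholly below 0 and apart from the other arrays, while the Sox9 spots of every array lie on both sides of 0.

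The 9 genes are measured by bright probes, and this bears on their values. Before normalisation the log2 ratio climbed with brightness on every array: the median of all spots was 0.90, 0.68, 1.20 and 0.46 on arrays 1 to 4, and the highest median in a bin of like brightness was between 0.84 and 1.82. Loess removes this climb, whereas centring each array on its median leaves it in. With median centring all 9 genes were called higher (0.24 for Hes1 to 0.82 for Krt18), as were 61.0% of all genes, and 15.8% were called lower. Relative to the median of all genes under that setting (0.26), Krt18 was at 0.57, Krt8 at 0.45 and Hes1 at -0.011. With loess these values relative to the median of all genes were 0.29, 0.20 and -0.12. Since the setting lifts bright probes together, its values do not bear on the direction of Krt8 and Krt18.

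**Figure D4:**
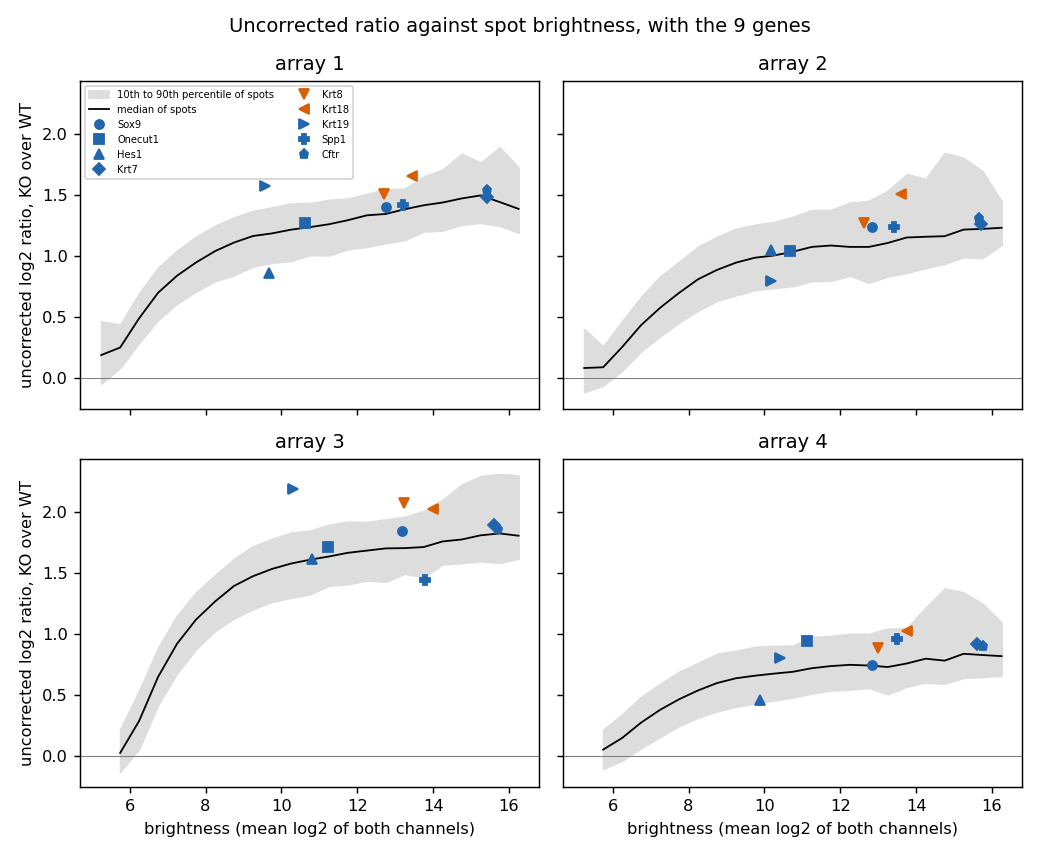
Uncorrected log2 ratio of knockout over wild type against spot brightness (mean log2 of both channels) on the 4 arrays. The line and grey band are the median and the 10th to 90th percentile of all spots and the symbols are the 9 genes; Krt18 lies above the median line on every array, Krt8 (orange with Krt18) does so too, and the line itself climbs with brightness.

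The lists of related genes set these values beside the wider duct and progenitor programme. The shares of all genes to set beside each list are 9.45% called higher, 5.11% lower and 14.6% in either direction. An unadjusted limma p under 0.05 was found for 30.8% of all genes. Of 24 other transcription factors of progenitors and ducts, 1 was called higher and 0 lower (limma; 6 had an unadjusted p under 0.05), with a median of 0.032. The 1 called was Foxa2, a pioneer factor of foregut endoderm, at 0.35 ± 0.065 (log2 ratio, SE, n = 4 arrays, limma adjusted p = 0.015; 0.0501 without array 4). Like most of the 9 genes, the other 23 factors of this list did not pass on their brightest probe. The second Gata4 probe gave 0.30 and passed (limma adjusted p = 0.040 in the fit of all probes), against -0.040 on the brightest. Neurog3, counted below with the Notch pathway, was called higher at 0.33 ± 0.069 (limma adjusted p = 0.021).

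Of 26 genes of the Notch pathway, which acts through Hes1, 5 rose and 1 fell, and the median was 0.024. An unadjusted limma p under 0.05 was found for 10 of the 26, against 30.8% of all genes. Dtx1, an E3 ligase induced by Notch, rose by 0.41 ± 0.059, and Lfng and Mfng, glycosyltransferases that modify Notch receptors, were higher at 0.37 ± 0.056 and 0.24 ± 0.047. The second Lfng probe gave 0.26. Mfng did not pass without array 1 or 3 (adjusted p = 0.058 and 0.074). Hey1, another Notch-induced repressor, went the other way and fell by 0.38 ± 0.074 (limma adjusted p = 0.017). Hey1 ranged from -0.67 on array 1 to -0.25 on array 2, and with the scanner's processed signals it was at -0.53 ± 0.13 and missed the threshold (adjusted p = 0.055).

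Of 24 genes of duct epithelium and bicarbonate secretion, 2 rose and 2 fell, with a median of 0.0038, and 7 had an unadjusted limma p under 0.05. Ano1, a calcium-activated chloride channel, rose by 0.38 ± 0.054 (limma adjusted p = 0.0057), while Cftr, the other chloride channel here, did not pass. Aqp1, a water channel, was lower at -0.41 ± 0.055, and Slc4a2, an anion exchanger, at -0.23 ± 0.054. With median centring these were at -0.074 and 0.29, or -0.33 and 0.032 against the all-gene median there, and Slc4a2 did not pass with any 1 array left out (adjusted p = 0.062 to 0.098). Ambp, a secreted inhibitor that progenitors and hepatocytes make, rose by 0.60 ± 0.066. It was at 0.45, 0.76, 0.73 and 0.47 on arrays 1 to 4, where hepatocyte markers averaged 2.07, 1.22, -1.29 and 0.80. The part of hepatocytes in the Ambp values was not tested.

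Of 18 other keratins and partners of keratin filaments, 2 rose and 1 fell, with a median of -0.034. An unadjusted limma p under 0.05 was found for 9 of the 18. Krt23, a type I keratin of simple epithelia, rose by 0.62 ± 0.050 (limma adjusted p = 0.0019), with 0.67, 0.72, 0.59 and 0.52 on arrays 1 to 4. Over all 34 keratin genes tested, 3 rose (Krt8, Krt18 and Krt23) and 0 fell, and the median was 0.0022. Of all genes, 9.45% were called higher and 5.11% lower. Outside the 9 genes, 1 of 30 keratins rose and 0 fell. Pkp2, a desmosomal plaque protein, was higher at 0.25 ± 0.053 (not past the threshold without array 1, 2 or 3, adjusted p = 0.056 to 0.079). Jup, plakoglobin, was at -0.22 ± 0.053 after loess and called lower, whereas median centring put it at 0.22, or -0.033 against the all-gene median there, and it did not pass without array 1, 2 or 4 (adjusted p = 0.082 to 0.114).

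Of 10 osteopontin receptor genes, 0 rose and 2 fell (limma; 5 had an unadjusted p under 0.05), with a median of -0.078. Itgav, the alpha chain of the integrins that bind osteopontin, was lower at -0.39 ± 0.051 (limma adjusted p = 0.0045), and its second probe gave -0.34. With median centring Itgav was at -0.054 and did not pass, or at -0.31 against the all-gene median there. Itgb1, a beta chain, was lower at -0.23 ± 0.046 with loess and at 0.21 with median centring, or -0.047 against the all-gene median there, and did not pass without array 1, 3 or 4 (adjusted p = 0.053 to 0.082).

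Of 16 Sox relatives and genes of the Fgf signal that sustains pancreatic progenitors with Sox9, 1 rose and 5 fell, with a median of -0.082. An unadjusted limma p under 0.05 was found for 8 of the 16, against 30.8% of all genes. Fgfr2, the receptor of Fgf10, was lower at -0.28 ± 0.045 (limma adjusted p = 0.0091), and its other probes gave -0.13 and -0.47. With median centring Fgfr2 was at -0.052 and did not pass, or at -0.31 against the all-gene median there. The feedback inhibitors Spry1, Spry2 and Dusp6 were lower at -0.19 ± 0.046, -0.21 ± 0.050 and -0.25 ± 0.059 (Dusp6 on 3 arrays). Without 1 array, Spry2 and Dusp6 did not pass in any case (adjusted p = 0.051 to 0.157) and Spry1 did not without array 1, 3 or 4 (0.073 to 0.138). With median centring Spry1 and Dusp6 were at 0.18 and 0.24, or -0.073 and -0.013 against the all-gene median there. The second Spry2 probe gave 0.096 with loess. The 1 gene that rose was Etv5, at 0.21 ± 0.055 (limma adjusted p = 0.044), and its second probe gave 0.32. With scaling between arrays 0 genes of this list were called higher. Spry4 was at 0.11 and did not pass, and its second probe gave -0.24. Fgfr1 was at -0.070 on its brightest probe and did not pass. Its other probes gave -0.87 (limma adjusted p = 0.0054 in the fit of all probes) and -0.12, which did not pass.

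**Figure D5:**
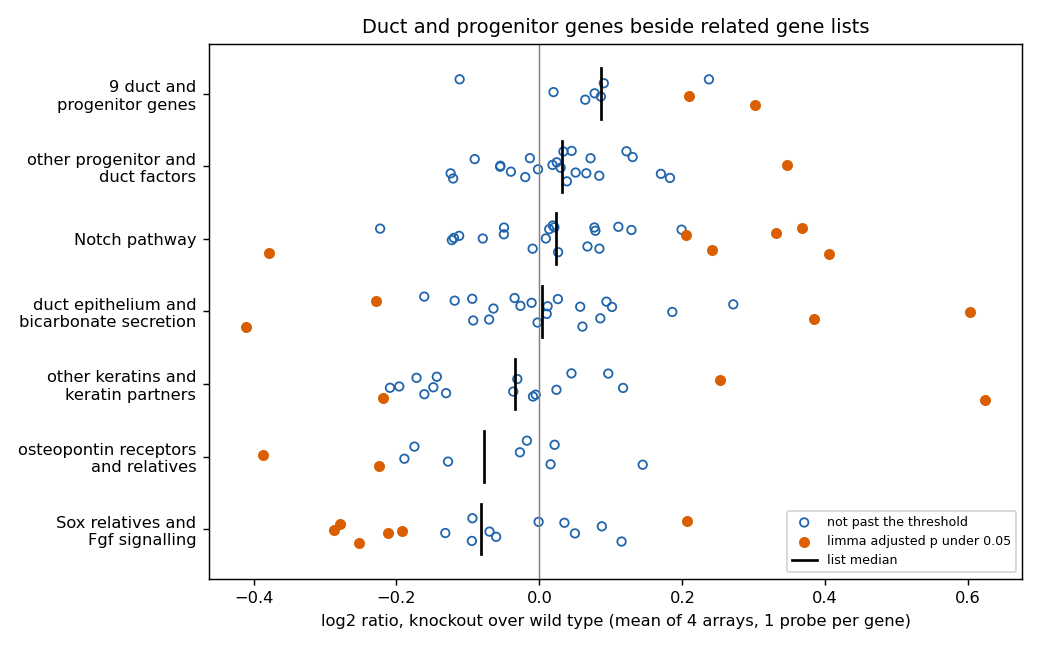
Mean log2 ratio of knockout over wild type over 4 arrays, 1 probe per gene, for the 9 duct and progenitor genes (top) and 6 lists of related genes (points), with each list's median as a black bar. Filled points passed the test; 2 of the 9 genes did, both above 0, and most points of every list lie between -0.2 and 0.2.

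Markers of other cells that make Krt8 and Krt18 gave these values. Hepatocyte markers had mean log2 ratios of 2.07, 1.22, -1.29 and 0.80 on arrays 1 to 4, with 0 of 8 past the threshold (limma; 2 had an unadjusted p under 0.05) and mean log2 levels of 8.37 to 10.7 in knockout and 8.42 to 9.66 in wild type. The hepatocyte markers differed among themselves: on array 3 Alb was at -3.52 and Apoa2 at 0.054. On arrays 1 to 4 Krt8 was at 0.16, 0.18, 0.36 and 0.14, and Krt18 at 0.27, 0.39, 0.28 and 0.27. Of 13 acinar markers, 4 were higher and 3 lower, with Gp2, a zymogen granule glycoprotein, at -1.52 ± 0.10. An unadjusted limma p under 0.05 was found for 9 of the 13. The mean log2 ratio of the acinar markers was -0.23, 0.085, 0.071 and 0.20 on arrays 1 to 4. Their mean level was 14.4 to 14.7 in knockout and 14.5 to 14.7 in wild type. Of 9 endocrine markers 0 rose and 2 fell (limma; 3 had an unadjusted p under 0.05), Chga and Chgb at -0.24 ± 0.060 and -0.31 ± 0.082. Both granins lost the call in 3 of the 4 fits without 1 array, and were at 0.23 and 0.045 with median centring, or -0.021 and -0.21 against the all-gene median there. Intestinal markers gave 0 of 5 past the threshold (0 with an unadjusted p under 0.05). Whether any of these cells contributed to the Krt8 and Krt18 ratios was not tested.

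Of mesenchymal markers 1 of 10 was higher on its brightest probe (Pdgfrb, a receptor of stellate cells, at 0.33 ± 0.069). Pdgfrb did not pass without array 2 or 4 (limma adjusted p = 0.060 and 0.078). On a further probe Col1a1 was at -0.46 and Col3a1 at -0.42, against -0.11 and 0.20 on the brightest. These further probes passed as lower (limma adjusted p = 0.016 and 0.0072 in the fit of all probes). The remaining Col1a1 probe gave -0.041 and did not pass. Of macrophage markers 1 of 8 was higher (C1qa at 0.48 ± 0.065). It was the 1 macrophage marker with a mean above 0, the list median was -0.082, and C1qb and C1qc, which encode the partner chains of C1qa, were at -0.086 and -0.16 and did not pass. Of endothelial markers 1 of 7 was lower (Tek at -0.29 ± 0.065, not past the threshold without array 3 or 4 at adjusted p = 0.080 and 0.090). An unadjusted limma p under 0.05 was found for 1 mesenchymal, 2 macrophage and 4 endothelial markers.

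The genes with the most similar ratios over the 4 arrays, by root mean square difference, were Nudt21 (0.0086) and Zfp277 (0.016) for Krt18, and Ttc38 (0.012) and Fndc11 (0.015) for Krt8. These are descriptions over 4 values, chosen among all tested named genes. Their mean log2 ratios were 0.31, 0.29, 0.20 and 0.21.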

How the data were processed

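Each array file holds, per the file headers, median red and green signals and local background as intensity, processed signals as intensity, a log10 ratio of red over green, and marks for each spot, deposited by the authors from Agilent Feature Extraction 10.5.1.1 (submitters' processing notes). Per the labels, 20 µg of total RNA was labelled per extract. From these, limma 3.58.1 (R 4.3.3) corrected the median signals for background (normexp, offset 50) and normalised each array by loess, with control and non-uniform spots at weight 0. Non-uniform spots were dropped and spots of a probe averaged. Accessions were matched without version to RefSeq (GRCm38.p6), which named 25089 of 41174 probes. The array files give an older build. A probe was tested if well above background in either channel on at least 3 arrays, and the brightest probe stood for its gene.

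The log2 ratio was fitted with lmFit and eBayes against 0, two-sided, with Benjamini-Hochberg adjustment over all genes and a threshold of 0.05. The pairing of extracts comes from the shared array and lies inside each ratio. Values per extract are log2 intensities after loess and quantile normalisation of brightness (Aquantile). Levels of different probes are not compared. The number of arrays limits the precision. Errors are SE from the fit unless said otherwise. The fit was tested on simulated ratios.

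Genes named were the 9, Cyp11a1, Xist, the nearest profiles of called genes, and of each list the called genes, up to 4 with the smallest p, or 2 where none was called. Not every gene that this takes is reported here by name. Other list genes are named where they bear on these. Members and lists were chosen with earlier results of these data known. Alternatives covered background correction, normalisation, filter, probe summary, pairing, spread estimate and leaving out arrays.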

Additional observations from a re-analysis of the deposited data

Results flagged for a closer look

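For 4 of 43 genes taken up, 1 array lay far from the other 3 by Dixon's ratio. Chance alone trips this check in about 1 in 20 groups, and Dusp6, measured on 3 arrays, was left out of it. Krt8 reached 0.36 (log2 ratio) on array 3, with the other arrays at 0.14 to 0.18. Krt18 reached 0.39 on array 2, with the others at 0.27 to 0.28. Hey1 was at -0.67 on array 1, with the others between -0.30 and -0.25. C1qa, a complement subunit made by macrophages, reached 0.71 on array 3, with the others at 0.38 to 0.42. In each case the outlying array had the same sign as the others. Krt18, Hey1 and C1qa passed the threshold without the array in question, and Krt8 did not (limma adjusted p = 0.138).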

How the results depend on the processing

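Across 15 alternatives, 119 of 135 values of the 9 genes kept their sign and their side of the threshold, 6 lost the call, 7 gained one and 3 changed sign. With median centring 11924 genes passed (9466 higher and 2458 lower, against 1468 and 794 with loess), 9 of the 9 genes among them. That setting turned Hes1 to 0.24, Slc4a2 to 0.29, Jup to 0.22, Itgb1 to 0.21, Spry1 to 0.18, Dusp6 to 0.24, Chga to 0.23, Chgb to 0.045, Lgals4 to 0.28 and Cdx1 to -0.15, all against 0. Relative to the median of all genes (0.26), Hes1, Jup, Itgb1, Spry1, Dusp6, Chga and Chgb stayed below 0 (-0.21 to -0.011), whereas Slc4a2 (0.032), Lgals4 (0.029) and Cdx1 (-0.40) changed sign. It leaves in the climb of the ratio with brightness. Without the array as a replicate block 106 genes passed and 0 of the 9 (limma; 2 had an unadjusted p under 0.05). Leaving out 1 array left 996 to 1590 genes, and 1 to 2 of the 9, past the threshold, with 3 arrays in place of 4, and Spp1 ranged from -0.044 to 0.12. The 2 passing without array 2 were Krt18 and Krt19. In the other alternatives (no background correction, processed signals, the log ratio column, scaling, no filter, strict filter, mean of probes, every probe, trend and robust) Krt8 and Krt18 passed as higher and the other 7 did not. The arrays limit what could be seen: intervals of the 7 genes not called reach 0.047 to 0.52 upwards.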
